A study of Homo sapiens with 9 samples.

Results

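A set of 10 genes of DNA replication licensing and the replication fork was followed through RNA-seq of SKOV3 cells, a human ovarian cancer cell line. They were chosen by symbol, as MCM2, MCM3, MCM4, MCM5, MCM6, MCM7, CDC6, CDT1, PCNA and POLE, and they are 10 of the 58735 genes in the deposited count table. All 10 passed the filter on low counts, as did 16350 genes in all. The groups were untreated cells expressing WT CDK9, cells expressing WT CDK9 given an ALK inhibitor for 24 h, and cells expressing Tyr19Phe CDK9 (Y19F in the labels), in which the tyrosine that ALK phosphorylates is replaced by phenylalanine. Each group had 3 libraries. The labels name neither the inhibitor nor its dose. The study describes CDK9 lines of this kind as stable re-expression in CDK9-depleted cells, its RNA-seq methods name only SKOV3 cells, and the number of clones behind each line is not given in the sources used here. With Tyr19Phe and WT CDK9 in separate lines, the mutation and any other difference between the lines cannot be told apart. Nothing says that the libraries came from separate cultures, so the p-values measure the spread between these libraries, which may be technical.

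Replication origins are licensed in G1 phase, when the origin recognition complex, CDC6 and CDT1 load the MCM2 to MCM7 hexamer onto DNA as an inactive helicase. In S phase the hexamer is activated by kinases, CDC45 and the GINS complex, POLE (the catalytic subunit of DNA polymerase epsilon) copies the leading strand, and PCNA is the sliding clamp that tethers polymerases to DNA. CDT1 is held back by geminin and destroyed in S phase, which limits each origin to a single licensing per cycle. Many of these genes are transcribed at the G1/S transition under the control of E2F factors, and their RNA is widely used as a readout of proliferating cells.

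The promoters of these genes are shown for the words they share. RefSeq promoters (GRCh38.p14, 250 bases before to 50 after an annotated start) were matched for 8 of the members, with 11 starts between them. No promoter of MCM4 or MCM5 was examined, so the member counts below leave both genes out. The 4 words searched on both strands were TTTCCCGC, TTTCGCGC, TTTGCCGC and TTTGGCGC, which are the usual forms of the E2F recognition sequence and can overlap each other. Each of the 8 genes held at least 1 of them at 1 of its starts, and 8 of the 11 member promoters did, against 3.31% of the 35116 RefSeq promoters of the same length. Among the 18864 promoters at least as rich in G and C as the least GC-rich member promoter (57.3%), the share was 4.86%. A match is a description of letters and not a measured binding site.

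In the windows of 30 bases below, written 5′ to 3′ on the strand of the gene, the capitals mark the word nearest to the annotated start. In MCM2, MCM3, MCM7 and CDC6 the word itself stands on the gene's strand, and in the others its reverse complement does.
MCM2, chr3:127598402-127598431, plus strand: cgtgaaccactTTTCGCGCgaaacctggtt
MCM3, chr6:52284728-52284757, minus strand: agttcggaagtTTTCGCGCcggggtggagt
MCM6, chr2:135876511-135876540, minus strand: ggtcaggtttgGCGCGAAAtctccagctcc
MCM7, chr7:100101388-100101417, minus strand: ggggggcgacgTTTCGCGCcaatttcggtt
CDC6, chr17:40287875-40287904, plus strand: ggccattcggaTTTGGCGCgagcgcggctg
CDT1, chr16:88803743-88803772, plus strand: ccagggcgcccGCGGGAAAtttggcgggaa
PCNA, chr20:5126663-5126692, minus strand: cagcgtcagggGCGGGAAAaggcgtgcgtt
POLE, chr12:132687342-132687371, minus strand: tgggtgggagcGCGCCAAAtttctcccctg
In MCM2 and MCM6 a word on the gene's strand overlaps another on the opposite strand, and MCM6 holds such a pair at 2 places. The values of these genes follow by role.

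Total counts ranged from 18169050 to 20974903 in the WT CDK9 and inhibitor-treated libraries and from 26485891 to 29320184 in the Tyr19Phe libraries. Depth and the Tyr19Phe group therefore cannot be told apart. ALK inhibitor replicate 2 and Tyr19Phe replicate 3 stood apart in the number of genes with at least 1 count (19944 and 20635, against 21911 to 22744 in the other libraries of their groups). Fits without each library were read for the members and for counts of called genes, and lost member calls are given below. Values of other single genes, sums, shares and correlations were not checked in this way. CDK9 itself had 48.6 ± 1.03, 45.6 ± 1.77 and 55.0 ± 3.94 CPM (counts scaled to 1000000 per library, SD, n = 3) in the 3 groups, which does not separate the introduced form from the endogenous gene, and ALK had at most 5 counts in any library. CDK9 was called higher in Tyr19Phe than in inhibitor-treated cells (log2 difference 0.27), and was called in neither comparison with untreated WT CDK9 cells. The epithelial markers KRT8, KRT18, KRT19, EPCAM and ERBB2 were all detected. With the inhibitor 2 were called higher, KRT19 (log2 fold change 0.21) and ERBB2 (0.54), beside 1.82% of all tested genes. In Tyr19Phe against WT CDK9 cells 3 were called lower and 2 higher, beside 10.4% and 7.61% of all tested genes. KRT19 (-1.24), EPCAM (-0.82) and ERBB2 (-0.29) were lower, and KRT8 (0.38) and KRT18 (0.39) were higher. The part of these marker differences in the results was not tested. Defining markers of leukocytes and endothelium (PTPRC, CD3D, CD68, PECAM1, VWF and CDH5) had between 0 and 35 counts per library. CDH5 had 14 to 35 counts in the Tyr19Phe libraries and at most 1 elsewhere, and its part in the results was not tested.

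In untreated WT CDK9 cells all 10 members were well expressed, and the clamp was far above the helicase. Levels of different genes were compared per kilobase (RPKM). The lengths in the deposited table span all annotated exons of a gene and are from 1.10 times (MCM6) to 2.12 times (MCM5 and POLE) that of the GENCODE canonical transcript, so both scales are given. Per canonical transcript, PCNA had 186 ± 6.73 RPKM (SD, n = 3), followed by MCM7 with 83.3 ± 2.05, MCM4 with 83.0 ± 2.37 and MCM3 with 66.4 ± 3.91 RPKM. MCM5 followed with 41.3 ± 1.78 RPKM. MCM2, CDC6, POLE and CDT1 lay between 33.1 and 34.8 RPKM with SDs from 1.28 to 1.77, and MCM6 was lowest with 27.2 ± 1.00 RPKM. MCM7 and MCM4 differed by less than their spread, as did neighbours among MCM2, CDC6, POLE and CDT1. On the table's own lengths PCNA was again highest (162 ± 5.83 RPKM), but MCM3 led the helicase subunits with 55.8 ± 3.29 RPKM, and MCM5 and POLE were lowest with 19.5 ± 0.84 and 15.6 ± 0.767 RPKM. The subunits of the hexamer, which sit in the complex in equal copies, thus differed in RNA level per kilobase on either scale.

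**Figure D1:**
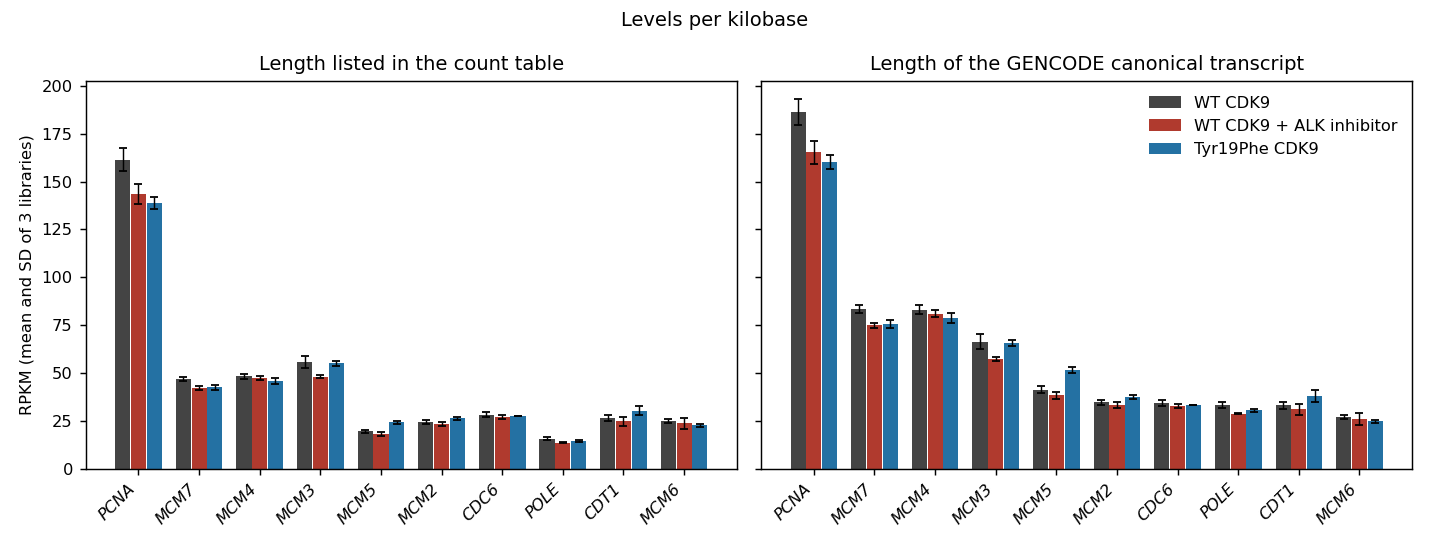
Mean RPKM of each member in the 3 groups, with bars starting at 0 and error bars of 1 SD over 3 libraries, using the lengths in the count table (left) and those of the GENCODE canonical transcripts (right). PCNA is highest on both scales, and MCM5 and POLE differ most, in proportion, between the panels, their listed lengths being 2.12 times the canonical ones.

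With the ALK inhibitor, the fork genes PCNA and POLE and the helicase subunits MCM3 and MCM7 fell against untreated WT CDK9 cells, and no member was called higher. In edgeR's quasi-likelihood test, with Benjamini-Hochberg adjustment over all 16350 genes and a threshold of 0.05, 4 of the 10 members were called lower, where 2.73% of all tested genes were called lower and 1.82% higher. No member was called higher by DESeq2 either. None was higher at an unadjusted p under 0.05, where 1129 of all 16350 tested genes were. All 10 fold changes were below 0, from -0.21 to -0.04 on the log2 scale with a median of -0.10, against a median of -0.0010 over all tested genes. For 4 members every inhibitor-treated library lay below every untreated one, which held for 10.3% of all tested genes, and for no member was every treated library above, which held for 9.31%. In bulk RNA, fewer cells in the phase that expresses a gene and less RNA per cell cannot be told apart.

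MCM3 (ENSG00000112118, chromosome 6 from 52264009 to 52284881), a helicase subunit, had 207, 214 and 190.4 CPM in the WT CDK9 libraries and 178, 177 and 172 CPM with the inhibitor. The groups did not overlap, and the lowest untreated library was above the highest treated one. MCM3 fell by 13.7% (log2 fold change -0.21, standard error (SE) 0.05, adjusted p = 0.00485). POLE (ENSG00000177084, chromosome 12 from 132623753 to 132687365) had 256, 249 and 274 CPM in untreated and 227, 221 and 227 CPM in treated cells, again without overlap. POLE fell by 13.3% (log2 fold change -0.21, SE 0.04, adjusted p = 0.00339). Each of these calls was lost when a single untreated library was left out, MCM3 without WT CDK9 replicate 2 (adjusted p = 0.0548) and POLE without WT CDK9 replicate 3 (adjusted p = 0.0556), and both were called in the other 5 fits.

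PCNA (ENSG00000132646, chromosome 20 from 5114953 to 5126626) had 237, 247 and 229 CPM in untreated and 204, 210.1 and 219 CPM in treated libraries. The groups did not overlap. PCNA fell by 11.2% (log2 fold change -0.17, SE 0.05, adjusted p = 0.021). MCM7 (ENSG00000166508, chromosome 7 from 100092728 to 100101940) had 200.1, 207 and 210.1 CPM in untreated and 188, 185 and 181 CPM in treated libraries. These also stood apart, and MCM7 fell by 10.1% (log2 fold change -0.15, SE 0.05, adjusted p = 0.046). Both calls were close to the threshold. Leaving out a library, PCNA was not called without WT CDK9 replicates 1 or 2 or inhibitor replicates 1 or 2 (adjusted p from 0.0882 to 0.152), and MCM7 was called in 0 of the 6 fits (adjusted p from 0.0843 to 0.200). The log2 fold change of MCM7 in those fits ranged from -0.17 to -0.13. MCM7 was also not called under DESeq2 size factors, upper quartile scaling, scaling by library size or without the count filter (adjusted p from 0.051 to 0.119), and PCNA was not called under scaling by library size (adjusted p = 0.0623).

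The remaining helicase subunits and the loading factors did not pass the test with the inhibitor. MCM5 had 136, 148 and 144 CPM in untreated and 138, 125 and 134 CPM in treated cells, a log2 fold change of -0.11 with a 95% interval from -0.21 to -0.00030 (adjusted p = 0.329). CDT1 and CDC6 had log2 fold changes of -0.09 (interval from -0.23 to 0.05) and -0.08 (interval from -0.18 to 0.03). MCM6, MCM2 and MCM4 had -0.07, -0.06 and -0.04, and their intervals also reached across 0. MCM6 was the most scattered member in treated cells, with 109, 97.8 and 85.6 CPM, and its log2 fold change was 0.02 without inhibitor replicate 3 and -0.15 without inhibitor replicate 1. The value of MCM3, -0.213, lay outside the intervals of MCM2, MCM4, CDC6 and MCM6, whose lower bounds were -0.173, -0.119, -0.177 and -0.205. The interval of MCM3 itself, from -0.311 to -0.115, overlapped theirs, and differences between members were not tested.

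**Figure D2:**
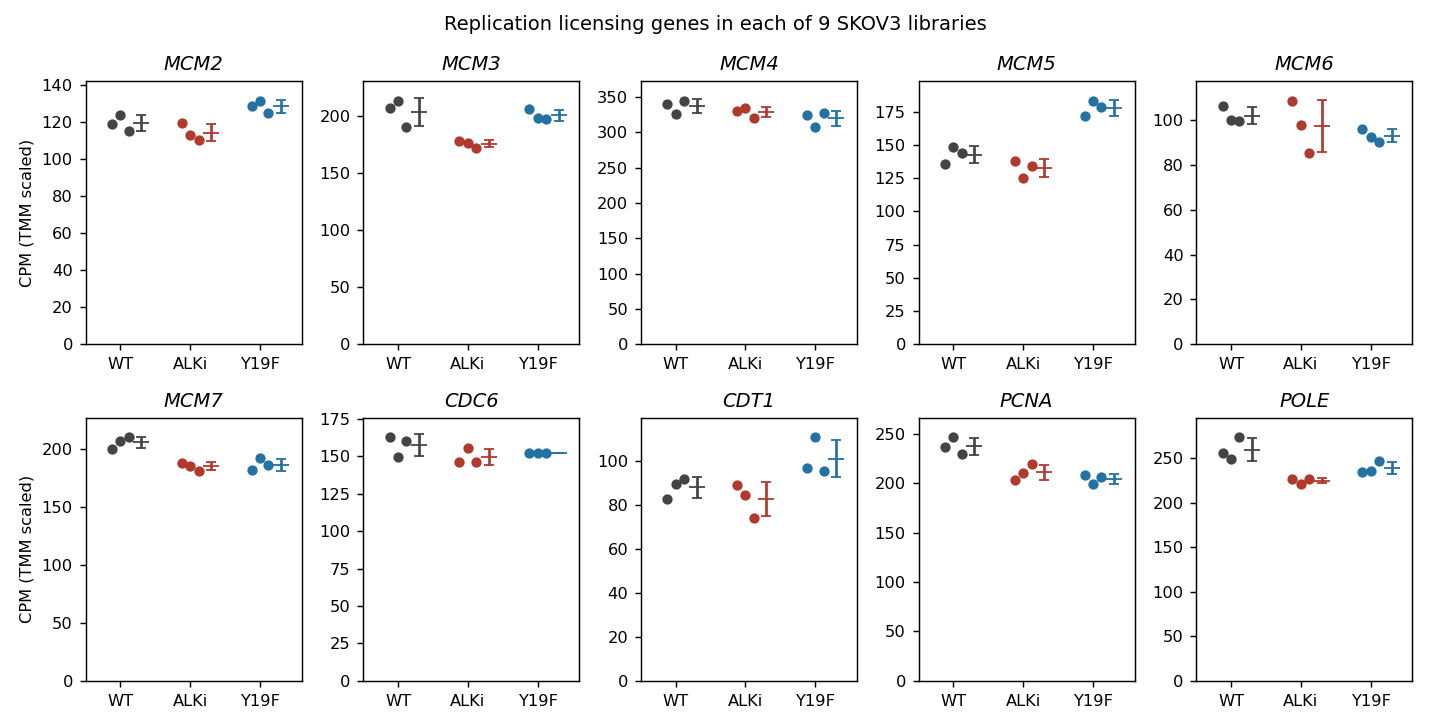
TMM-scaled CPM of each member in every library (points), with the mean and SD of each group beside them, for WT CDK9 cells (WT), ALK inhibitor-treated WT CDK9 cells (ALKi) and Tyr19Phe CDK9 cells (Y19F). All axes start at 0. MCM3, MCM7, PCNA and POLE have treated libraries wholly below the untreated ones, and MCM5 and CDT1 have Tyr19Phe libraries wholly above them.

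In Tyr19Phe CDK9 cells the members went in both directions. MCM5, a helicase subunit, rose by 24.6% and CDT1, which brings the helicase to origins, rose by 14.8%, while PCNA fell by 14.0% and MCM7 fell by 9.33%. In the same joint fit 2 members were called lower, beside 10.4% of all tested genes, and 2 were called higher, beside 7.61%. On the log2 scale the members' median was -0.06 and that of all tested genes was 0.0035. Every Tyr19Phe library lay below every WT CDK9 library for 4 members (17.2% of all tested genes) and above for 3 (15.4% of all tested genes). The 4 below were MCM6, MCM7, PCNA and POLE, and the 3 above were MCM2, MCM5 and CDT1.

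MCM5 (ENSG00000100297, chromosome 22 from 35400063 to 35425430) had 136, 148 and 144 CPM in WT CDK9 and 172, 183 and 178 CPM in Tyr19Phe libraries. The lowest Tyr19Phe library was far above the highest WT CDK9 library. On the log2 scale MCM5 was 0.32 higher (SE 0.05, adjusted p = 2.38e-05), and MCM5 was called in all 6 fits with a library left out (adjusted p at most 0.00083). Most genes around it had fold changes above 0, and most of these did not pass the test. Within 5 Mb on either side of MCM5, a segment of 10 Mb, the log2 fold changes of the 109 other tested genes had a median of 0.20, with 89 of them above 0, 33 called higher and 4 called lower. Over the 400 other tested genes of chromosome 22 the median was 0.21, the highest of the 22 autosomes, whose medians otherwise went down to -0.22 on chromosome 4. MCM5 had a larger fold change than 73 of its 109 neighbours, and with the inhibitor the median of these neighbours was -0.01. The part of the chromosome-wide shift in the level of MCM5 was not tested.

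**Figure D3:**
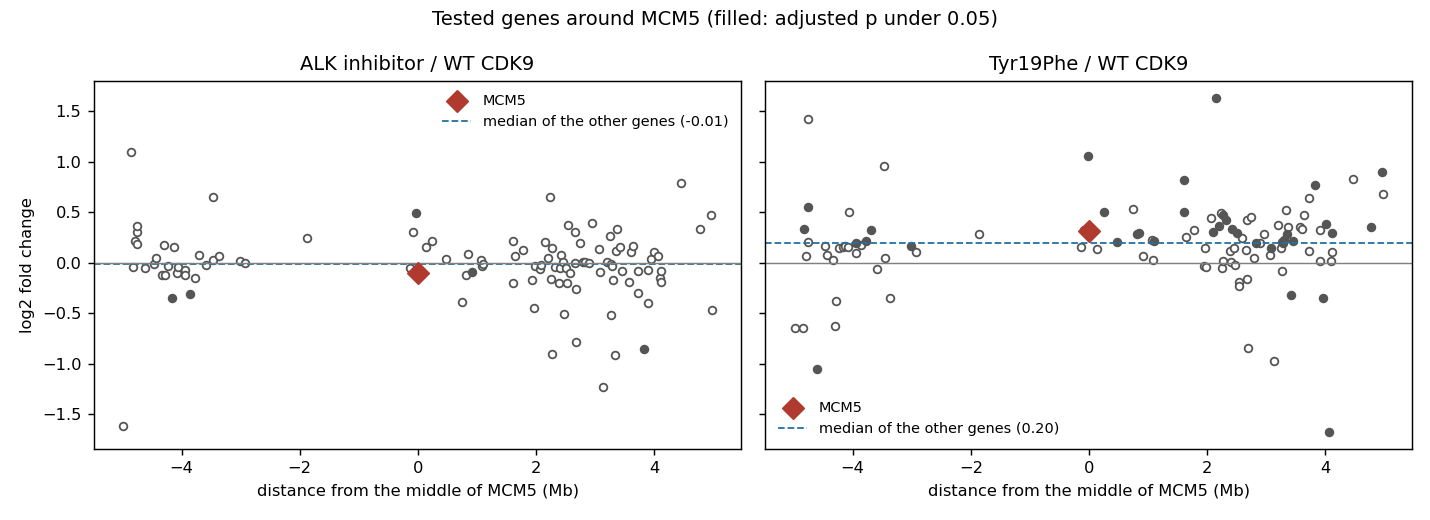
Log2 fold change of each tested gene within 5 Mb of MCM5 against its distance in Mb, with the inhibitor (left) and with Tyr19Phe CDK9 (right), filled where the adjusted p was under 0.05. The dashed line is the median of the other 109 genes, which is near 0 with the inhibitor and 0.20 with Tyr19Phe CDK9, and MCM5 (diamond) lies above it on the right.

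CDT1 (ENSG00000167513, chromosome 16 from 88803213 to 88809258) had 83.0, 89.5 and 92.1 CPM in WT CDK9 and 97.2, 111 and 95.6 CPM in Tyr19Phe libraries. The groups did not overlap, with Tyr19Phe replicate 2 the highest. On the log2 scale CDT1 was 0.20 higher (SE 0.07, adjusted p = 0.0415), where the other tested genes of chromosome 16 had a median of 0.03. The call was lost without Tyr19Phe replicate 2 (log2 fold change 0.13, adjusted p = 0.272), WT CDK9 replicate 1 (0.16, adjusted p = 0.203) or WT CDK9 replicate 2 (0.21, adjusted p = 0.0587). The other loading factor did not share the rise. CDC6 (ENSG00000094804, chromosome 17 from 40287633 to 40304657) had 163, 149 and 160.2 CPM in WT CDK9 and 152 CPM in each Tyr19Phe library, a log2 fold change of -0.05 with an interval from -0.15 to 0.05.

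PCNA had 208, 199 and 206 CPM in Tyr19Phe libraries, all below the lowest WT CDK9 library at 229 CPM. The difference was -0.22 on the log2 scale (SE 0.05, adjusted p = 6.27e-04), and PCNA was called in all 6 fits with a library left out. The other tested genes of chromosome 20 had a median of 0.01. MCM7 had 182, 192 and 186 CPM in Tyr19Phe libraries, also below the untreated ones (log2 fold change -0.14, SE 0.04, adjusted p = 0.0247). That call was lost without WT CDK9 replicates 2 or 3 or Tyr19Phe replicates 1 or 3 (adjusted p from 0.0694 to 0.123), under upper quartile scaling, under scaling by library size and without the count filter (adjusted p from 0.0595 to 0.0728).

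POLE had 234, 235 and 247 CPM in Tyr19Phe libraries, just below the lowest WT CDK9 library at 249 CPM, and it narrowly missed the threshold (log2 fold change -0.12, adjusted p = 0.0567). It passed with DESeq2 (adjusted p = 0.0369), with the replicate number as a block (adjusted p = 0.0418) and without WT CDK9 replicate 2 (adjusted p = 0.0333). MCM2 (ENSG00000073111, chromosome 3 from 127598223 to 127622436) had 119, 124 and 115 CPM in WT CDK9 and 129, 132 and 125 CPM in Tyr19Phe libraries, without overlap but not called (log2 fold change 0.11, interval from -0.0036 to 0.22, adjusted p = 0.189). MCM6 (ENSG00000076003, chromosome 2 from 135839626 to 135876426) had 106, 100.1 and 99.8 against 96.3, 92.7 and 90.5 CPM, with a log2 fold change of -0.13 (interval from -0.27 to 0.0036). MCM3 and MCM4 overlapped between the groups. Their log2 fold changes were -0.02 and -0.08, with intervals from -0.12 to 0.08 and from -0.16 to 0.0072. MCM4 (ENSG00000104738, chromosome 8 from 47960185 to 47978160) had the highest CPM of the members, between 308 and 345 in all 9 libraries, and passed in none of the comparisons.

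The summed CPM of MCM2 to MCM7 was 1111 ± 7.42 (SD, n = 3) in WT CDK9 cells, 1034 ± 29.7 with the inhibitor and 1107 ± 2.06 in Tyr19Phe CDK9 cells. The total therefore stayed near the WT CDK9 level in Tyr19Phe CDK9 cells while its make-up shifted. MCM5 held 8.86 ± 0.364% of the summed RPKM of the subunits (table lengths) in WT CDK9 cells, 8.92 ± 0.447% with the inhibitor and 11.2 ± 0.395% in Tyr19Phe CDK9 cells. MCM7 held 21.3 ± 0.672%, 20.8 ± 0.264% and 19.6 ± 0.570%. The size of these shares depends on the lengths used, and they were not computed on canonical transcript lengths.

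Both comparisons above use the same WT CDK9 libraries, so the Tyr19Phe and inhibitor-treated libraries were also compared directly in the same fit. In that contrast 4 members were called higher in Tyr19Phe CDK9 cells, namely MCM5, CDT1, MCM3 and MCM2, where 9.57% of all tested genes were called higher and 11.1% lower. No member was called lower by edgeR or DESeq2. None was lower at an unadjusted p under 0.05 either, where 2688 of all 16350 tested genes were. Every Tyr19Phe library lay above every treated library for 5 members (16.7% of all tested genes) and below for none (17.7% of all tested genes), POLE being the fifth of them. The median log2 difference was 0.06, against 0.0018 over all tested genes.

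MCM5 was 34.2% higher in Tyr19Phe than in inhibitor-treated cells (log2 difference 0.42, SE 0.05, adjusted p = 1.57e-07), beside a median of 0.22 for the rest of chromosome 22. CDT1 was 22.3% higher (log2 difference 0.29, SE 0.07, adjusted p = 0.00235), with the treated libraries at 89.4, 84.7 and 74.3 CPM. MCM3 was 14.2% higher (log2 difference 0.19, SE 0.05, adjusted p = 0.00332), its Tyr19Phe libraries lying at 206, 198 and 197.5 CPM. These 3 were called in all 6 fits with a library left out. MCM2 was 12.3% higher (log2 difference 0.17, SE 0.05, adjusted p = 0.0242), with treated libraries at 119.8, 113 and 111 CPM, but the call was lost without inhibitor replicates 2 or 3 or Tyr19Phe replicates 1 or 2 (adjusted p from 0.0579 to 0.112). PCNA and MCM7, lower than in untreated cells in both groups, differed between these groups by -0.05 (interval from -0.14 to 0.05) and 0.01 (interval from -0.08 to 0.10) on the log2 scale.

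**Figure D4:**
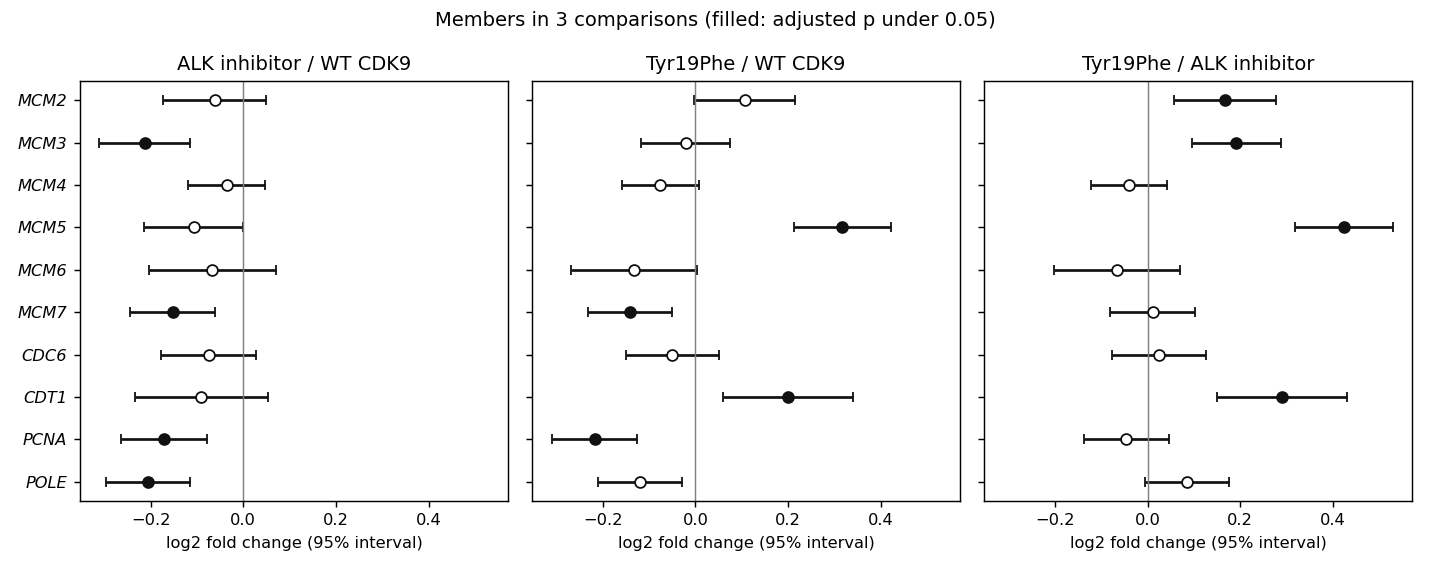
Log2 fold changes of the 10 members with 95% intervals in the 3 comparisons, filled where the adjusted p was under 0.05. With the inhibitor all points lie left of 0, with Tyr19Phe CDK9 they lie on both sides from -0.22 for PCNA to 0.32 for MCM5, and in the direct contrast MCM5, CDT1, MCM3 and MCM2 are filled to the right.

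The rest of the replication machinery was read from a list of 62 genes, all tested. With the inhibitor 3 were called lower and 0 higher by edgeR (4 and 0 by DESeq2), beside 2.73% lower and 1.82% higher of all tested genes. At an unadjusted p under 0.05, 9 were lower and 1 higher, where 1344 of all 16350 tested genes were lower and 1129 higher. Of the 62, 44 were below 0, with a median log2 fold change of -0.05. The 3 called lower by edgeR were DONSON, a replisome component (-0.27, adjusted p = 0.0249), CHTF18, a subunit of an alternative clamp loader (-0.17, adjusted p = 0.0461), and POLA1, the catalytic subunit of the priming polymerase (-0.25, adjusted p = 0.0491). The count was 0 without WT CDK9 replicate 2 or inhibitor replicate 2, 1 without any other of the 6 libraries, and 1 under each other scaling run. In Tyr19Phe CDK9 cells 7 of the 62 were called lower and 5 higher, shares near the 10.4% and 7.61% of all tested genes, with 29 below 0 and a median of 0.0093. Those with the smallest adjusted p were RFC1 (-0.37), the large subunit of the clamp loader, ORC4 (-0.65), a subunit of the origin recognition complex, DONSON (-0.36) and POLA1 (-0.36), with adjusted p from 1.47e-06 to 4.97e-04. RFC1 lies on chromosome 4 and DONSON on chromosome 21, whose other genes had medians of -0.22 and -0.12.

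In the direct contrast 7 of the 62 were higher and 3 lower in Tyr19Phe CDK9 cells, beside 9.57% higher and 11.1% lower of all tested genes. The smallest adjusted p belonged to RFC1 (-0.33, adjusted p = 6.87e-06), ORC4 (-0.54, adjusted p = 1.57e-04), DNA2, a nuclease of Okazaki fragment processing (0.44, adjusted p = 4.59e-04), and MCM10, which helps to activate the helicase (0.31, adjusted p = 0.00177). DNA2 and MCM10 lie on chromosome 10, whose other genes had a median of 0.11 in the direct contrast and 0.12 in Tyr19Phe against WT CDK9 cells. In the direct contrast the other genes of chromosome 4 (RFC1) and chromosome 2 (ORC4) had medians of -0.23 and -0.03. Among the relatives of the hexamer, MCM9 fell in Tyr19Phe CDK9 cells by 0.50 on the log2 scale (adjusted p = 5.39e-04), and had -0.29 with the inhibitor (adjusted p = 0.116). MCM8 had -0.06 with the inhibitor and -0.03 with Tyr19Phe CDK9, and MCMBP, which binds free MCM subunits, had -0.12 and -0.03. MCM10 had -0.18 and 0.13, and none of these 6 values passed the test.

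Of 6 genes that restrain or degrade CDT1, only CUL4B, a ligase scaffold named here after its values were seen, passed in any of the 3 comparisons (-0.29 in Tyr19Phe against WT CDK9 cells, adjusted p = 0.00233). Geminin (GMNN) had 71.3, 66.4 and 70.5 CPM as group means in WT CDK9, inhibitor-treated and Tyr19Phe CDK9 cells. DTL, the adaptor of the ligase that destroys CDT1 on PCNA, had 74.6, 71.8 and 76.9 CPM, and SKP2, another ligase subunit, had 70.8, 68.8 and 76.6 CPM. The accessory subunits of the polymerase did not pass in any comparison. On the log2 scale POLE2 differed by -0.03 with the inhibitor and -0.15 with Tyr19Phe CDK9, POLE3 had -0.0078 and 0.14, and POLE4 had -0.06 in both.

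Other genes of the cell cycle were read from a list of 16 S phase genes and a list of 16 G2/M genes. With the inhibitor, where 2.73% of all tested genes were lower, 2 S phase genes were called lower, TYMS, which makes thymidylate (-0.30, adjusted p = 0.0112), and the transcription factor E2F1 (-0.20, adjusted p = 0.0252). None of the G2/M genes was called by edgeR or DESeq2. At an unadjusted p under 0.05, 5 genes of each list were lower, where 1344 of all 16350 tested genes were. In Tyr19Phe CDK9 cells 3 S phase genes were called lower and 1 higher, and 3 G2/M genes lower, beside 10.4% lower and 7.61% higher of all tested genes. Those with the smallest adjusted p were CCNA2 (-0.28, adjusted p = 3.2e-05, on chromosome 4), the ribonucleotide reductase subunit RRM2 (-0.19, adjusted p = 0.00312), MKI67 (-0.24, adjusted p = 2.71e-05) and TOP2A (-0.16, adjusted p = 0.00237). The others, named after their values were seen, were SLBP (-0.21, adjusted p = 0.00317) and CCNB1 (-0.14, adjusted p = 0.026), both lower, and TYMS, which was higher (0.23, adjusted p = 0.0217). SLBP lies on chromosome 4, as CCNA2 does, and the other genes of that chromosome had a median of -0.22. In the direct contrast, where 9.57% of all tested genes were higher and 11.1% lower, 5 S phase genes were higher and 2 lower in Tyr19Phe CDK9 cells, led by TYMS (0.52, adjusted p = 1.31e-06) and TK1 (0.26, adjusted p = 2.12e-04), and 2 G2/M genes were lower, CCNB2 (-0.28, adjusted p = 0.00318) and MKI67 (-0.13, adjusted p = 0.0147).

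Across the 9 libraries the members did not share a single pattern. Of their 45 pairs, 11 had a Pearson correlation of log2 CPM below 0, the median was 0.32, and the range ran from -0.60 for MCM4 and MCM5 to 0.88 for MCM2 and MCM5. The libraries of a group are included together, so these values hold the group differences described above. The mean of the centred log2 CPM of MCM2 to MCM7 had r = 0.89 with MCM3 but -0.07 with MCM4, both part of it. It was followed closely by ANAPC7 (r = 0.98), ANP32B (0.96), SHISA9 (0.95) and S1PR1 (0.95) over the 9 libraries. These are among the 5 most alike of all tested genes that are no member with a mean of at least 1 CPM. SHISA9 and S1PR1 were called lower with the inhibitor (log2 fold changes -1.13 and -0.87), and none of these 4 was called in Tyr19Phe against WT CDK9 cells.

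Other annotated genes overlap the span of 3 members, exons and introns together. MCM7 overlaps AP4M1 on the opposite strand over 392 bases and MCM2 overlaps TPRA1 over 45 bases. MCM2 also overlaps the antisense gene AC023593.1 over 2331 bases, which had at most 15 counts per library. Since the strand setting of the counting is not given in the sources used here, reads in those stretches could belong to either gene. AP4M1 had 183 to 339 counts per library and was not called in any comparison. TPRA1 had 1111 to 2453 counts and was higher in the direct contrast (0.29, adjusted p = 0.0063), as MCM2 was. Whether any reads were counted for the wrong gene was not tested. The snoRNA RF00568 lies inside PCNA on its strand and had at most 2 counts. MIR25, MIR93 and MIR106B lie inside MCM7 on its strand and had at most 12 counts. PCNA has the processed copies PCNAP1, PCNAP3 and PCNAP4 in the table, each with 0 counts in all libraries.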

How the data were processed

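The deposited values are counts, whole numbers of reads per gene and library without normalization. The study mapped its reads to hg38, and the submitters' processing notes name CASAVA, HISAT2 2.0.5 and featureCounts 1.5.0-p3. The annotation release and the strand setting are not given in the sources used here. The table's gene length was used for RPKM, with GENCODE v44 canonical transcripts as a second scale.

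Counts were analysed with edgeR 4.0.16 in R 4.3.3. Genes passed filterByExpr (minimum count 10, minimum total 15), libraries were scaled by TMM, and group means were estimated jointly from the 9 libraries by quasi-likelihood (6 residual degrees of freedom). Contrasts were two-sided and adjusted by the Benjamini-Hochberg method over 16350 genes. Standard errors were the log2 fold change divided by the square root of F. DESeq2 1.42.0 was an alternative. Replicate numbers are shared between groups, but same-numbered libraries did not deviate together, so they were not paired.

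The members and gene lists were chosen with earlier results of these data known. The text names the members, CDK9 and ALK, the cell type markers, the called genes of lowest adjusted p per comparison (4 from the replication list, 2 from each cell cycle list), a fixed set of MCM relatives, polymerase subunits and CDT1 regulators, the 5 genes most like the mean of MCM2 to MCM7, and genes overlapping a member. CUL4B, SLBP, CCNB1 and PCNA's processed copies were added after values were seen. Some genes that these rules select are not reported here.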

Additional observations from a re-analysis of the deposited data

Results flagged for a closer look

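For 4 members Tyr19Phe CDK9 cells differed from inhibitor-treated WT CDK9 cells when both groups were contrasted directly in edgeR's quasi-likelihood test. The log2 differences (Tyr19Phe minus inhibitor) were 0.42 for MCM5 (adjusted p = 1.57e-07), 0.29 for CDT1 (adjusted p = 0.00235), 0.19 for MCM3 (adjusted p = 0.00332) and 0.17 for MCM2 (adjusted p = 0.0242), each with all 3 Tyr19Phe libraries above all 3 treated libraries. For MCM5 the rest of chromosome 22 had a median difference of 0.22, for CDT1 the rest of chromosome 16 had 0.06, and for MCM3 and MCM2 the rest of chromosomes 6 and 3 had 0.02 and -0.02. What these shifts contribute was not tested.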

How the results depend on the processing

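Effects of the members were small, at most 0.42 on the log2 scale, and several calls lay near the threshold. With the inhibitor, 4 members were called lower, 2 under scaling by library size or at an adjusted p under 0.01, and between 1 and 3 with a library left out. With Tyr19Phe CDK9, 2 were called lower and 1 under upper quartile scaling, scaling by library size, without the count filter or at an adjusted p under 0.01, and between 1 and 2 with a library left out. The 2 called higher became 1 at an adjusted p under 0.01 and between 1 and 2 with a library left out. The counts of the direct contrast stayed within 1.5 times of the main ones under the alternatives run. With the replicate number as a block, 4, 3 and 0 members were called lower in the 3 comparisons, and only the call of POLE in Tyr19Phe CDK9 cells changed. Same-numbered libraries had correlations of their deviations between -0.01 and 0.03, so the number is taken as a name. No member with a call reversed its direction in any alternative. RPKM on canonical transcript lengths, added after seeing the data, changed the order of the subunits. Of the 62 replication genes, 3 were lower with the inhibitor, 1 under other scalings or with only the 6 libraries compared, 0 at an adjusted p under 0.01 and between 0 and 1 with a library left out. Of those higher in Tyr19Phe CDK9 cells, 5 against WT CDK9 became 2 and 7 against the inhibitor became 4 at an adjusted p under 0.01. The cause of the lost calls was not tested.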
